A study of Sus scrofa with 14 samples.

Results

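A set of 10 genes of the vessel wall and of vessel growth was followed in pig adipose tissue: PECAM1, CDH5, KDR, FLT1, TEK and VWF for blood vessel endothelium, the ligand VEGFA, and PROX1, LYVE1 and FLT4 for lymphatic endothelium. They were chosen by name and looked up by the gene symbol of each Ensembl ID in the deposited tables, where 9 of the 10 were found among 21280 genes. Their IDs were ENSSSCG00000017277 (PECAM1), ENSSSCG00000035772 (CDH5), ENSSSCG00000008844 (KDR), ENSSSCG00000009320 (FLT1), ENSSSCG00000005122 (TEK), ENSSSCG00000001695 (VEGFA), ENSSSCG00000015584 (PROX1), ENSSSCG00000029886 (LYVE1) and ENSSSCG00000014007 (FLT4). The symbol VWF matched no ID, so VWF enters the chromatin part alone and no expression count or sum below. An ID that the study treats as VWF carries the symbol ANO2 in the name table used here, and its TPM (a level scaled for transcript length and for the total of the library) was between 50.4 and 117 in the 7 libraries. RNA-seq and Hi-C, which maps contacts between stretches of the genome, were made from the greater omentum (GOM, visceral fat) and the upper layer of backfat (ULB, subcutaneous fat) of wild boars and Bama pigs, a small Chinese domestic breed. All animals were 2-year-old females kept alike on a single farm with no treatment. The wild boars were wild-caught animals, and the Bama pigs were of an ordinary, not an inbred, line. For each assay, wild boar gave 2 GOM and 2 ULB libraries, and Bama pig gave 2 and 1. Both depots came from the same 4 pigs, so libraries of the 2 depots were not independent, and breed was represented by 2 animals on each side. The estimated read counts summed to between 10833153 and 18627076 per library, and the adipocyte gene FABP4 stood between 4997 and 9823 TPM in every library, which is high for a marker of the labelled tissue. Fat depots are mixtures of cells, and in such bulk samples fewer cells of a type cannot be told apart from less RNA per cell.

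Blood capillaries in fat deliver fatty acids and oxygen to adipocytes, and adipocytes secrete VEGFA, the chief growth factor for their vessels. VEGFA acts through the tyrosine kinase KDR (VEGFR2), which drives endothelial growth, and is bound by FLT1 (VEGFR1), which holds the ligand with high affinity and signals weakly. TEK (TIE2) is the receptor for angiopoietins and keeps vessels stable, while PECAM1 (CD31) and CDH5 (VE-cadherin) sit at the junctions between endothelial cells. Lymphatic endothelium is specified by the transcription factor PROX1 and grows through FLT4 (VEGFR3), the receptor for VEGFC and VEGFD. LYVE1 is a hyaluronan receptor of lymphatic capillaries that tissue macrophages also make, and TEK and FLT4 are not strictly confined to one vessel type.

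The 250 bases before the start of PROX1 and FLT4, the regulator and the growth factor receptor of lymphatic endothelium, are shown because their start sites stood furthest apart in compartment among the lymphatic genes, as described below. They were read from Sscrofa11.1 next to the RefSeq gene start, 5′ to 3′ on the strand of the gene. They lay at chr9:129583694-129583943, minus strand for PROX1, and chr2:78075758-78076007, plus strand for FLT4. Capitals mark matches, on either strand, to 3 short motifs: AGGAAG (a form of the ETS factor core), ACGTG (the hypoxia response core) and GATAAG (a form of the GATA factor site). Only these exact letters were searched. Other forms of a site, such as gata within the agataa of the PROX1 window, are left in lower case, so the capitals are no count of possible sites.
PROX1: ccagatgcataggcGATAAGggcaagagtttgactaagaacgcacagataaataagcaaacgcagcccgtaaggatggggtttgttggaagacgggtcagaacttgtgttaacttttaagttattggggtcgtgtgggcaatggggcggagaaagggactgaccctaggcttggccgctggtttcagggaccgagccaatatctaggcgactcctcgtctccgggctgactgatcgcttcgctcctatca
FLT4: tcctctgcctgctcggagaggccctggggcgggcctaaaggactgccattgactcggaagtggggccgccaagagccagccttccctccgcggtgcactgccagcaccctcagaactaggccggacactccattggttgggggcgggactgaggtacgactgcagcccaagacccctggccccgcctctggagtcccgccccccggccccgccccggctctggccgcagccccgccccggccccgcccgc
GATAAG was found upstream of PROX1, as in 4.81% of 18688 windows of that length before protein-coding genes. The letters of AGGAAG, present in 25.1% of those windows, and of ACGTG, present in 18.7%, were in neither of the sequences shown, and FLT4 held no match. No motif contains another, and a RefSeq start need not be the start used in fat. The GC content of the window was 73.2% for FLT4 and 52.4% for PROX1, beside a median of 58.0% over all windows.

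All 9 matched genes were detected in all 7 libraries, and their levels spanned a wide range. PECAM1 was the most abundant, with a TPM of 340 ± 65.8 (SD, n = 7), above 98.6% of all listed genes. LYVE1 followed with 103 ± 31.3 TPM, then CDH5 with 62.8 ± 23.7, VEGFA with 61.7 ± 23.7, TEK with 50.9 ± 19.8 and KDR with 40.9 ± 12.3. FLT1 stood at 17.1 ± 12.9 TPM, FLT4 at 5.78 ± 2.81 and PROX1 at 1.64 ± 1.46, which placed PROX1 above 40.9% of genes. PECAM1 was above LYVE1 in 7 of 7 libraries, and KDR above FLT1, FLT1 above FLT4 and FLT4 above PROX1 likewise in 7 of 7. In the middle of the order neighbours were not separated: LYVE1 exceeded CDH5 in 5 of 7 libraries, CDH5 exceeded VEGFA in 4, VEGFA exceeded TEK in 5 and TEK exceeded KDR in 6. Thus, within the lymphatic trio, the membrane receptor LYVE1 was abundant and the master regulator PROX1 scarce. PROX1 rested on 23 to 168 estimated counts per library and FLT4 on 61 to 566, whereas PECAM1 had 8295 or more.

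**Figure D1:**
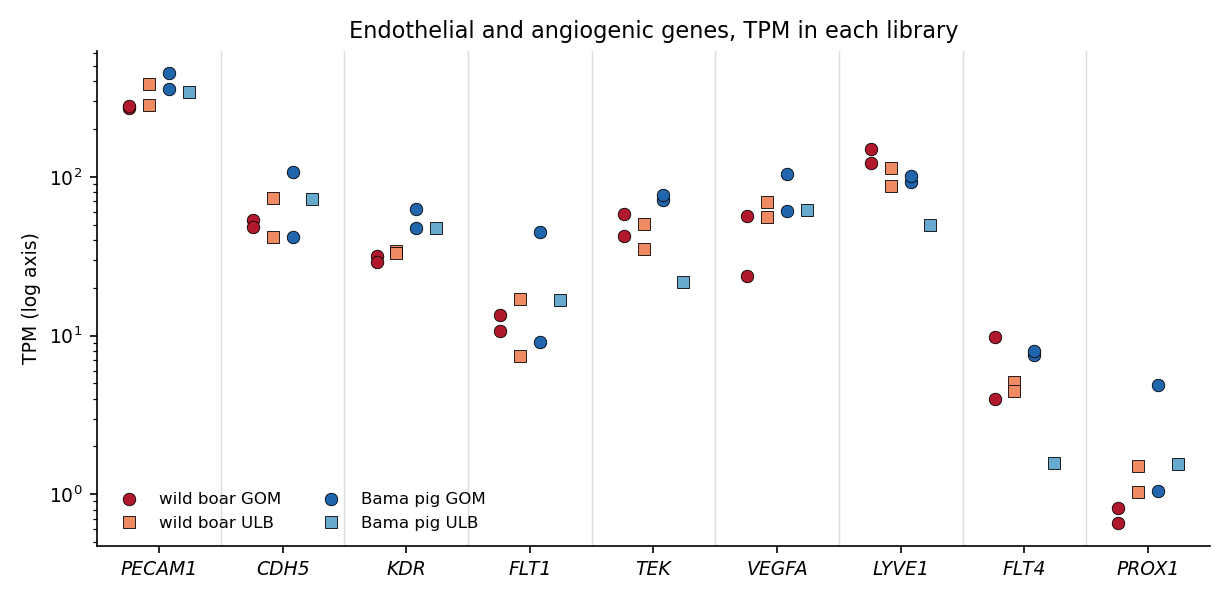
TPM of the 9 matched genes (x axis) in each of 7 RNA-seq libraries on a log axis, one point per library, coloured by breed and depot. PECAM1 lies between 270.6 and 450 TPM, PROX1 between 0.657 and 4.86.

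The depot comparison asks whether vessel genes differed between visceral and subcutaneous fat. None of the 9 genes passed the test (edgeR quasi-likelihood F test over 7 libraries with breed in the model, called where the adjusted p of Benjamini and Hochberg was under 0.05 and the log2 fold change beyond 1 in either direction), where 3.58% of 17874 tested genes did. Unadjusted p was below 0.05 for 3 of the 9, TEK, LYVE1 and FLT4, all higher in GOM, where 19.9% of all tested genes had such a p in either direction. DESeq2 called 0 of the 9 as well. The median log2 fold change of the 9 was -0.05, beside 0.02 over all tested genes.

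LYVE1 was the 1 gene whose GOM libraries lay above the ULB libraries within each breed. Its TPM was 122.2 and 150 in wild boar GOM against 87.4 and 114.5 in wild boar ULB, and 92.9 and 101.2 in Bama pig GOM against 49.9 in Bama pig ULB. The groups overlapped across breeds but not within them, also after TMM scaling of the counts, a pattern that 15.0% of all tested genes showed in this direction. The log2 fold change was 0.62 ± 0.24 (SE, edgeR adjusted p = 0.196).

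TEK, the angiopoietin receptor, had 42.2 and 58.4 TPM in wild boar GOM against 35 and 50.3 in wild boar ULB. In Bama pig it had 71.9 and 76.9 in GOM against 21.9 in ULB, so the gap was wide in Bama pig and the wild boar values overlapped. Its log2 fold change was 0.82 ± 0.30 (SE, edgeR adjusted p = 0.165), and 0.49 without the Bama pig ULB library (edgeR adjusted p = 0.542).

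FLT4, the lymphatic growth factor receptor, had 3.99 and 9.83 TPM in wild boar GOM against 5.07 and 4.48 in the ULB of that breed. In Bama pig the values were 7.49 and 8.03 in GOM against 1.57 in ULB, the lowest of all. Again the wild boar libraries overlapped and the single Bama pig ULB library stood low. The log2 fold change was 1.20 ± 0.42 (SE, edgeR adjusted p = 0.154). It was 1.61 without wild boar GOM replicate 1, where FLT4 was lowest among the GOM libraries. FLT4 passed both thresholds in that fit and in no other depot fit, so its call turned on a single library. Without wild boar GOM replicate 2 it was 0.83, and without Bama pig ULB replicate 2 it was 0.79. The values of PROX1 lay otherwise than those of its lymphatic partners. It had 0.657 and 0.814 TPM in wild boar GOM against 1.51 and 1.03 in wild boar ULB, and 4.86 and 1.05 in Bama pig GOM against 1.55 in Bama pig ULB. Bama pig GOM replicate 1 stood far above the rest, and the log2 fold change was -0.15 ± 0.59 (SE, edgeR adjusted p = 0.906).

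The junction genes and the VEGF receptors of blood vessels had depot values near 0. PECAM1 had 270.6 and 281.6 TPM in wild boar GOM against 285.1 and 387.5 in wild boar ULB, and 450 and 359.9 in Bama pig GOM against 343.9 in Bama pig ULB, for a log2 fold change of -0.11 ± 0.27 (SE). CDH5 had 53.6 and 48.3, 41.9 and 73.7, 107.5 and 42.1, and 72.5 TPM in the same order, for -0.14 ± 0.33 (SE). Both genes overlapped between depots, and the 2 Bama pig GOM libraries held both the highest CDH5 value and nearly the lowest. KDR had 31.6 and 29.2 TPM in wild boar GOM against 34.2 and 33.2 in wild boar ULB, and 47.3 and 63.2 in Bama pig GOM against 47.8 in Bama pig ULB, for a log2 fold change of -0.05 ± 0.24 (SE). FLT1 had 10.7 and 13.4, 7.45 and 17.1, 45.2 and 9.17, and 16.8 TPM in that order, for 0.23 ± 0.46 (SE). The sign of KDR and FLT1 was not stable: with the replicate number within breed as a block they were 0.06 and -0.20. The ligand VEGFA had 56.3 and 23.7 TPM in wild boar GOM against 69.7 and 56 in wild boar ULB, and 104.1 and 61 in Bama pig GOM against 61.5 in Bama pig ULB, and its log2 fold change was -0.30 ± 0.31 (SE), with a range of -0.56 to -0.05 over the fits that omit a library. No gene had all GOM libraries below all ULB libraries within each breed, which 11.8% of tested genes had. Adjusted p of these 5 genes was between 0.618 and 0.930 by edgeR.

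Within wild boar alone, where each depot had 2 libraries, edgeR called 0 of the 9 genes against 1.97% of 16183 tested, 318 genes. LYVE1 was the 1 member of 9 with an unadjusted p below 0.05, which 21% of all tested genes had. Its log2 fold change was 0.65 ± 0.27 (SE, edgeR adjusted p = 0.231). With the replicate number as a block 1623 genes were called and still 0 of the 9, LYVE1 having an adjusted p of 0.162. DESeq2 called 0 of the 9. Whether the depot difference itself depended on breed was tested by the interaction term. It was called for 0 of the 9 genes and for 0.00% of 17874, with an unadjusted p below 0.05 for 0 of the 9 and for 869 genes in all, and DESeq2 called 52 genes, none of the 9.

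The breed comparison asks how wild boar and Bama pig fat differed. LYVE1 had the smallest p of the 9 genes, with a 2.03-fold higher level in wild boar, at a log2 fold change of 1.02 ± 0.25 (SE). With an unadjusted p of 0.00182 it reached an edgeR adjusted p of 0.0872 and so missed the threshold. Over both depots edgeR called 0 of the 9 genes, with 0.420% of 17874 genes called, and only LYVE1 had an unadjusted p below 0.05, against 21.6% of all genes. DESeq2 called 1 of the 9, LYVE1 (adjusted p = 0.00584), where it called 6.47% of all genes. Leaving out each library in turn moved the LYVE1 log2 fold change between 0.86 and 1.12. The edgeR call was less stable than the fold. LYVE1 was called without Bama pig GOM replicate 2, at 1.06, and in no other of these fits. That fit also called the most genes of all fits that omit a library. LYVE1 was also the 1 member whose wild boar libraries lay above the Bama pig libraries within each depot, which 12.3% of tested genes did. None lay below in that way on the scaled counts, as 12.9% of genes did.

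KDR, the main signalling receptor for VEGFA, looked lower in wild boar by TPM, where the 4 wild boar values of 29.2 to 34.2 all lay under the 3 Bama pig values of 47.3 to 63.2. TPM summed to between 774260 and 956616 over the listed genes of a library, so TPM is not on one scale in all libraries. As counts scaled to the library size with TMM factors (CPM), KDR had 124, 135, 131 and 113 in the wild boar libraries and 127, 185 and 186 in the Bama pig libraries, which overlap. Its log2 fold change was -0.41 ± 0.24 (SE, edgeR adjusted p = 0.348).

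PROX1 had a log2 fold change of -0.97 ± 0.58 (SE) for wild boar minus Bama pig and FLT4 one of 0.86 ± 0.42 (SE), so the 3 lymphatic genes did not share a direction. Their edgeR adjusted p were 0.350 and 0.256. Without Bama pig GOM replicate 1 the PROX1 value shrank to -0.17. TEK stood at 0.36 ± 0.29 (SE), VEGFA at -0.31 ± 0.31, FLT1 at -0.55 ± 0.45, CDH5 at -0.14 ± 0.33 and PECAM1 at -0.02 ± 0.27, with adjusted p between 0.492 and 0.969 by edgeR. Upper-quartile scaling lowered the median of all genes in this comparison from -0.04 to -0.18, and PROX1 was then -1.12 with an edgeR adjusted p of 0.287.

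**Figure D2:**
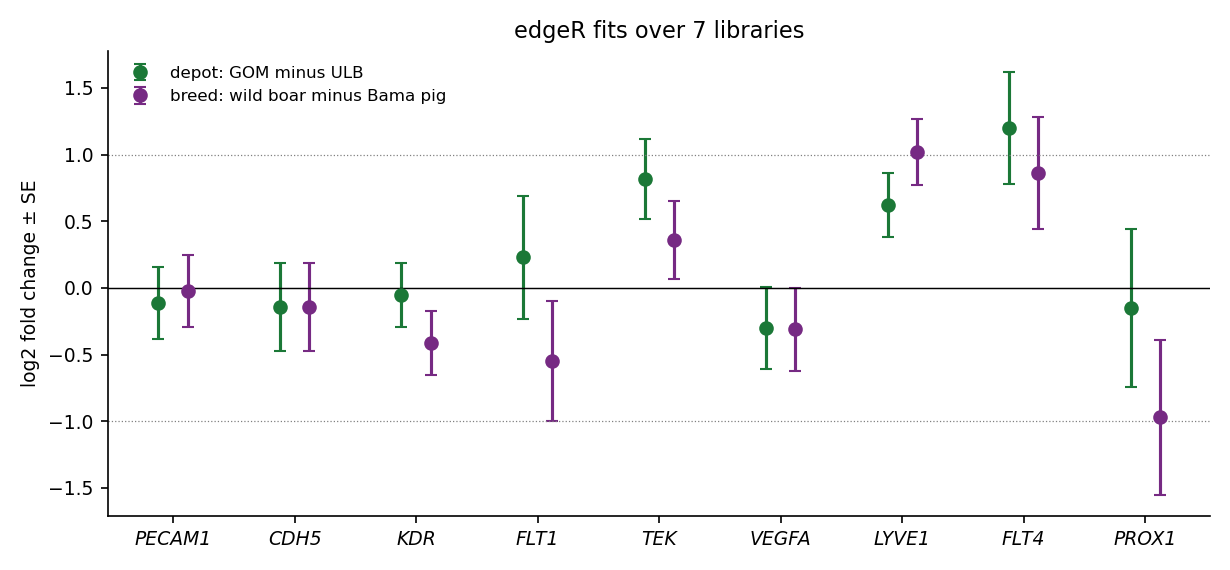
log2 fold change (y axis) of the 9 matched genes in the edgeR fits over 7 libraries, with bars of 1 SE, for depot (GOM minus ULB, green) and breed (wild boar minus Bama pig, purple). Dotted lines mark the fold threshold; TEK, LYVE1 and FLT4 are above 0 in both comparisons, and none passes the adjusted p.

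Within the GOM, 2 wild boar libraries against 2 Bama pig libraries gave 0 of 9 genes called, against 0.0241% of 16615. LYVE1 had 122.2 and 150 TPM against 92.9 and 101.2, a log2 fold change of 1.09 ± 0.39 (SE). Its unadjusted p by edgeR was 0.023 and its adjusted p 0.611. An unadjusted p below 0.05 was found for 1 of the 9 and for 8% of all tested genes. DESeq2 called 0 of the 9. Within the ULB, where 1 Bama pig library was set against 2 of wild boar and was assumed to vary like the other groups, LYVE1 had a log2 fold change of 0.90 ± 0.41 (SE) and FLT4 one of 1.51 ± 0.67. Neither was called (edgeR adjusted p = 0.342 and 0.335), with 0 of 9 members and 0.252% of 17874 genes called. In that fit no member had an unadjusted p below 0.05, and DESeq2 called none.

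The balance between lymphatic and blood endothelial transcripts was taken within each library as the summed TPM of LYVE1, FLT4 and PROX1 over that of PECAM1, CDH5, KDR, FLT1 and TEK. It was 0.310 and 0.373 in wild boar GOM against 0.233 and 0.214 in wild boar ULB, and 0.146 and 0.200 in Bama pig GOM against 0.105 in Bama pig ULB. The ratio was higher in GOM than in ULB within each breed and higher in wild boar than in Bama pig within each depot. Across breeds the depots overlapped, at 0.257 ± 0.103 (SD, n = 4) in GOM and 0.184 ± 0.0687 (SD, n = 3) in ULB, and no test was made of this score. LYVE1 made up 88.3% to 96.3% of the lymphatic sum, and PECAM1 62.3% to 70.6% of the blood sum.

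With LYVE1 left out, the ratio was 0.0114 and 0.0247 in wild boar GOM against 0.0163 and 0.00982 in wild boar ULB, and 0.0171 and 0.0165 in Bama pig GOM against 0.0062 in Bama pig ULB. That version overlapped between breeds in the GOM and between depots in wild boar. The ratio of LYVE1 to PROX1 was 186 and 184 in wild boar GOM against 57.7 and 111 in wild boar ULB, and 19.1 and 96 in Bama pig GOM against 32.2 in Bama pig ULB. The ratio of FLT4 to the blood receptor KDR was 0.0329 in Bama pig ULB and between 0.127 and 0.336 in the other libraries. The ratio of FLT1 to KDR, both receptors of VEGFA, was between 0.145 and 0.956, and both extremes came from the 2 Bama pig GOM libraries.

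**Figure D3:**
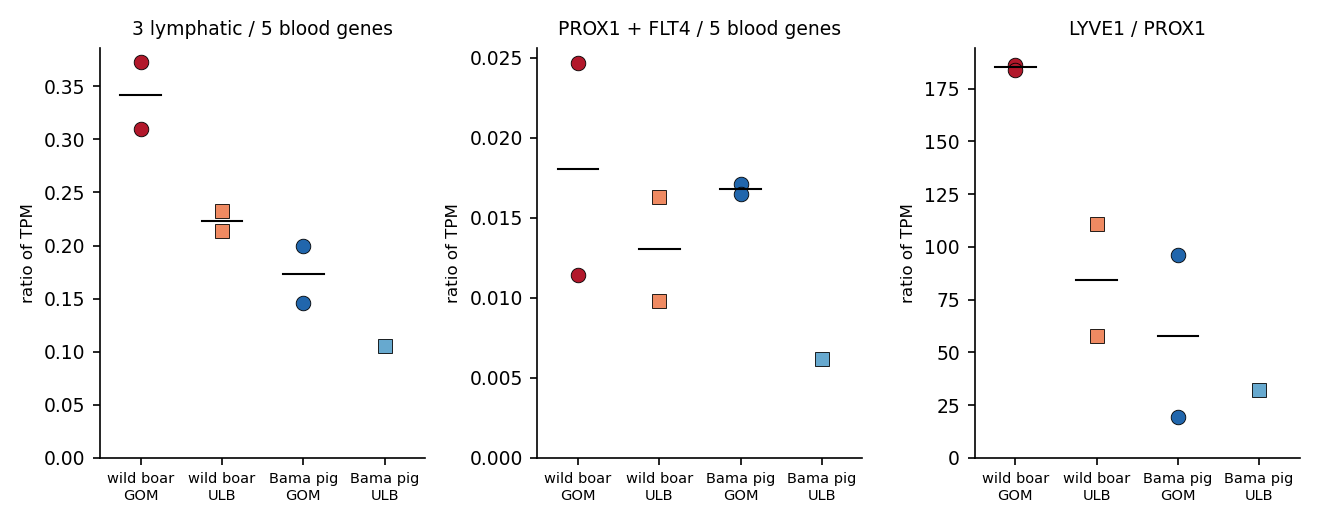
Ratios of summed TPM (y axes start at 0) in each of 7 libraries by breed and depot, one point per library and a line at the mean of a group of 2. The ratio of all lymphatic to blood genes falls from 0.373 to 0.105, whereas PROX1 plus FLT4 over the blood genes overlaps between wild boar GOM and ULB and between the breeds in GOM.

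LYVE1 is also a macrophage gene, so macrophage markers are given beside it. Of 10 markers 9 were matched, none was at 0, and their summed TPM was 494 to 893 in GOM and 356 to 651 in ULB, or 421 to 893 in wild boar and 356 to 765 in Bama pig. In the breed fit edgeR called 0 of 9, and 3 had an unadjusted p below 0.05, CD163, FOLR2 and MRC1, all higher in wild boar at log2 fold changes of 1.53 ± 0.48, 1.04 ± 0.27 and 0.82 ± 0.31 (SE). DESeq2 called CD163 and FOLR2. These genes were named after their values were seen. Over the whole list 7 of 9 macrophage markers were above 0 by breed and 2 below, with a median of 0.42. Within the GOM 8 of 9 were above 0 and within the ULB 4 of 9, with medians of 0.75 and -0.14. CD163 is a scavenger receptor, FOLR2 a folate receptor and MRC1 the mannose receptor of resident macrophages. The depot fit called 1 of 9, TIMD4, a receptor of resident macrophages of serous tissues, at 3.40 ± 0.70 (SE, edgeR adjusted p = 0.0266), and 0 of 9 without Bama pig GOM replicate 1. C1QA, a complement gene of macrophages, had 1.37 (edgeR adjusted p = 0.106) and was called by DESeq2, as was CD163. CD163, MRC1 and FOLR2 there had log2 fold changes of 1.39, 0.04 and -0.08. The part of macrophages in the LYVE1 values was not tested.

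Further genes of lymphatic vessels were followed as a list of 11, of which 10 were matched and tested. Their summed TPM was 141 and 115 in wild boar GOM against 148 and 160 in wild boar ULB. In Bama pig it was 322 and 134 in GOM against 91.5 in ULB. This sum did not follow the lymphatic to blood ratio above: it was lower in GOM within wild boar, and highest in Bama pig GOM replicate 1. In the depot fit 1 of 10 rose in GOM and none fell, with a list median of 0.13. The gene that rose was PKHD1L1, a large receptor-like membrane protein. It had 34.8 and 17 TPM in wild boar GOM against 1.89 and 1.78 in wild boar ULB, and 17.5 and 16.4 in Bama pig GOM against 0.209 in Bama pig ULB. The groups did not overlap, and the log2 fold change was 4.40 ± 0.45 (SE, edgeR adjusted p = 0.000725). PDPN (podoplanin) had 0.78 ± 0.34 and RELN (reelin) 0.41 ± 0.43, with adjusted p of 0.237 and 0.629. CCL21, the chemokine of lymphatic endothelium, had 112.6 TPM in Bama pig GOM replicate 1, where PROX1 was also highest, and 9.43 to 33.7 elsewhere. In the breed fit 0 of 10 were called, and in the GOM alone PKHD1L1 had 1.16 ± 0.44 and CCL21 -1.60 ± 0.89 (SE, edgeR adjusted p = 0.616 and 0.641).

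The GOM is covered by mesothelium, and its markers moved with the depot. Of 9 mesothelial genes 4 were matched, with a summed TPM of 118 to 461 in GOM and 3.13 to 14 in ULB. WT1, BNC1 and KRT8 passed, with log2 fold changes of 8.79 ± 0.75, 7.67 ± 0.79 and 5.16 ± 0.76 (SE) and edgeR adjusted p of 0.000314, 0.000785 and 0.00526. BNC1 was listed at 0 in both wild boar ULB libraries and WT1 in 1 of them, so the size of these fitted values depends on the small count that the method adds. Mesothelial cells can make some genes of the lymphatic list, and their part in the depot values of PKHD1L1, PDPN, LYVE1 and FLT4 was not tested.

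Pan-endothelial genes, a list of 24 with 21 matched, gave 0 of 21 called by depot with a median of 0.07, beside -0.05 over the 5 blood vessel members. ECSCR, an endothelial migration regulator, had 1.05 ± 0.36, ROBO4, a guidance receptor of endothelium, -1.05 ± 0.40, and PALMD -0.69 ± 0.27 (SE), with edgeR adjusted p of 0.145, 0.184 and 0.201. Capillary and lipid handling genes gave 0 of 8 with a median of -0.33. Of these MEOX2, a transcription factor of capillaries, had -0.69 ± 0.26, GPIHBP1, which carries lipoprotein lipase to the capillary lumen, -0.84 ± 0.43, and the carbonic anhydrase CA4 -0.62 ± 0.35 (SE). The list was mixed in direction, with 3 of 8 above 0: AQP1 at 0.60, TCF15 at 0.53 and BTNL9 at 0.37, named after their values were seen. Arterial genes gave 0 of 12 with a median of 0.17, and BMX, UNC5B and the arterial ligand EFNB2 had 1.20 ± 0.37, 0.99 ± 0.39 and 0.68 ± 0.28 (SE, edgeR adjusted p = 0.108, 0.202 and 0.211). DESeq2 called BMX.

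Venous genes gave 1 of 6 higher in GOM, SELP, with a median of 0.57 and all 6 log2 fold changes above 0. Without Bama pig GOM replicate 1 it was 5 of 6 with a median of 0.43, and within wild boar 4 of 6. SELP (P-selectin) captures leukocytes on venules and is also carried by platelets. It had 5.47 and 3.76 TPM in wild boar GOM against 1.19 and 1.55 in wild boar ULB, and 5.89 and 4.61 in Bama pig GOM against 1.65 in Bama pig ULB. The groups did not overlap, and the log2 fold change was 1.65 ± 0.33 (SE, edgeR adjusted p = 0.0223). NR2F2, the venous fate regulator, and APLNR, the apelin receptor, had 0.86 ± 0.41 and 1.03 ± 0.70 (SE, edgeR adjusted p = 0.272 and 0.437). Beside SELP, the platelet chemokine PPBP was higher in GOM at 2.97 ± 0.64 (SE, edgeR adjusted p = 0.0324), 1 of 3 platelet genes tested, and the part of platelets in the SELP value was not tested.

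In the VEGF and angiopoietin system, 15 of 18 listed genes were matched, 2 fell in GOM and none rose, with a median of -0.22. SEMA3A, a semaphorin that opposes VEGFA at neuropilin, had 1.43 and 0.951 TPM in wild boar GOM against 12.2 and 5.14 in wild boar ULB, and 1.51 and 0.622 in Bama pig GOM against 5.09 in Bama pig ULB. It did not overlap between depots, at -2.69 ± 0.45 (SE, edgeR adjusted p = 0.00961). ANGPTL4, an inhibitor of lipoprotein lipase made by adipocytes, had 20.5 and 12.5 TPM in wild boar GOM against 39.1 and 85.2 in wild boar ULB, and 55.9 and 16.5 in Bama pig GOM against 98.7 in Bama pig ULB. Within each breed GOM lay below ULB, at -1.78 ± 0.39 (SE, edgeR adjusted p = 0.0331). THBS1 (thrombospondin), an inhibitor of vessel growth, had -2.31 ± 0.73 (SE, edgeR adjusted p = 0.117) and was called by DESeq2. It reached 1919 TPM in wild boar ULB replicate 2 and lay between 71.5 and 565.2 in the others. The ligands of FLT4 and TEK are given for that role, with their values known. VEGFC and VEGFD, the ligands of FLT4, had log2 fold changes of -0.02 ± 0.47 and 0.34 ± 0.32 (SE), and ANGPT1 and ANGPT2, those of TEK, -0.95 ± 0.55 and -0.22 ± 0.29. None was called by edgeR or DESeq2.

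Of the hypoxia genes, 11 of 15 were matched and 1 fell in GOM, ARNT, the constitutive partner of the hypoxia factors. It had 90.4 and 89.4 TPM in wild boar GOM against 231.3 and 230.4 in wild boar ULB, and 101.9 and 118.4 in Bama pig GOM against 194 in Bama pig ULB. The depots did not overlap, at -1.18 ± 0.25 (SE, edgeR adjusted p = 0.0288), though without Bama pig GOM replicate 1 no hypoxia gene was called. NDRG1, which DESeq2 called, and ADM (adrenomedullin), a peptide that widens vessels, had 1.21 ± 0.32 and -0.68 ± 0.23 (SE, edgeR adjusted p = 0.0684 and 0.133). Mural cell genes, which mark the pericytes and smooth muscle around vessels, gave 1 of 13 higher, the pericyte gene HIGD1B at 2.66 ± 0.61 (SE, edgeR adjusted p = 0.0399). PDGFRB and CSPG4, both pericyte surface proteins, had -0.94 ± 0.31 and 0.56 ± 0.27 (SE).

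Among the cells around the vessels, adipocyte genes gave 0 of 7 called by depot, LEP (leptin) having -1.36 ± 0.33 (SE, edgeR adjusted p = 0.0539). Lymphocyte genes gave 1 of 7, CD2, progenitor genes 1 of 5, PI16, and liver-secreted genes 1 of 7, TF (transferrin), all higher in GOM at log2 fold changes of 1.70, 2.10 and 2.53. In total 14 members and listed genes were called by depot with edgeR, 22 with DESeq2, and 11 without Bama pig GOM replicate 1. Over all tested genes the counts were 640 (3.58% of 17874), 1399 and 545 in that order. Without that library no macrophage, lymphocyte, progenitor or hypoxia gene was called, and 3 rather than 2 genes of the VEGF and angiopoietin system were.

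**Figure D4:**
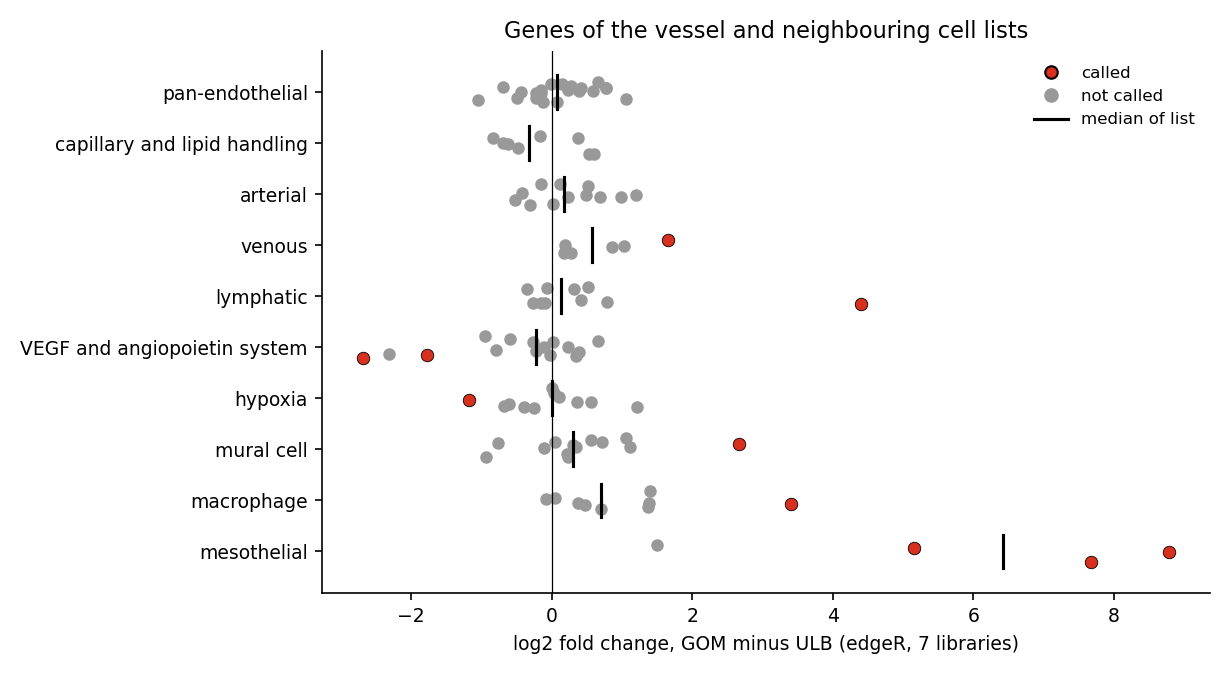
log2 fold change of each tested gene (x axis, GOM minus ULB) in 10 lists of vessel and neighbouring cell genes, with called genes in red, others in grey and the list median as a black line. Pan-endothelial genes centre at 0.07, and mesothelial genes reach 8.79.

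By breed, no vessel list had a called gene with edgeR: 0 of 21 pan-endothelial, 0 of 8 capillary, 0 of 12 arterial, 0 of 6 venous, 0 of 10 lymphatic, 0 of 15 VEGF and angiopoietin, 0 of 11 hypoxia and 0 of 13 mural genes. Unadjusted p was below 0.05 for 5 of 21 pan-endothelial genes, of which 2 were above and 3 below 0, near the 21.6% of all genes, among them ADGRL4 at -0.85 ± 0.25 (SE, edgeR adjusted p = 0.128). DESeq2 called 1 pan-endothelial gene, the junction gene CLDN5, 1 capillary gene, AQP1, and 1 lymphatic gene, PKHD1L1. It also called 2 hypoxia genes, EGLN3 and ADM, and 1 mural gene, TAGLN. All of these were higher in wild boar, where DESeq2 called 6.47% of all 17874 tested genes in either direction. No arterial, venous or VEGF and angiopoietin gene was called. In the GOM alone ADGRL4 had -0.94 ± 0.39, ANGPT1 -1.13 ± 0.48, ADM 1.07 ± 0.35 and the smooth muscle gene ACTA2 2.15 ± 0.80 (SE), and none passed. ACTA2 had 90.4 and 528.8 TPM in wild boar GOM against 130.4 and 94.8 in Bama pig GOM, so its value rested on wild boar GOM replicate 2, where the muscle genes TAGLN, MYH11, CNN1 and DES were also highest. Some liver-secreted genes moved with breed. Of 8 markers 7 were matched, and their summed TPM was 186 to 258 in wild boar and 261 to 1390 in Bama pig. By edgeR 3 of 7 were called lower in wild boar, ALB, APOB and FGB, and 6 of the 7 log2 fold changes were negative. APOA1 and TF overlapped between breeds, at 163 to 206 and 7.1 to 79.9 TPM in wild boar against 146.2 to 226.6 and 10.3 to 105.1 in Bama pig. Of these 7 markers each was above 0 in every library, and what part they have in the breed values of the vessel genes was not tested.

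One library stood apart for these genes. Bama pig GOM replicate 1, whose TPM also had the largest sum, had the highest TPM of PECAM1, CDH5, FLT1, VEGFA and PROX1 among the 7 libraries, with FLT1 at 45.2 against 7.45 to 17.1 in the others. As CPM it was still the highest for CDH5 (213 against 207 in the next library), FLT1, VEGFA and PROX1, but PECAM1 had 666 there and up to 736 elsewhere. It was not the highest for KDR, TEK, LYVE1 or FLT4, which peaked in 2 other libraries. Without it, the FLT1 breed value went from -0.55 to 0.11 and its depot value from 0.23 to -0.24.

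Genes most like the mean of the standardised member profiles over the 7 libraries were listed as a description, by Pearson r of log2(TPM + 1). For the 5 blood vessel genes these were LTA4H, MTRR, SMARCC1, PTPRE and CNOT11, at r of 0.987 to 0.974 among 9264 candidates with a mean TPM of 5 or more. For the 3 lymphatic genes they were KCNQ1, RASSF9, PLA2G4A, PI15 and FBLN1, at r of 0.986 to 0.954 among 9267. The members themselves did not share a single profile. By log2 CPM, r among the blood vessel genes ran from -0.32 (CDH5 with KDR) to 0.90 (CDH5 with FLT1). PROX1 had -0.57 with LYVE1 and -0.16 with FLT4, while LYVE1 had 0.74 with FLT4. A high r with the mean therefore does not show that a gene followed each member. The 7 points come from 4 pigs, and both depots of a pig are among them, so no p is given.

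The chromatin data place the start site of each gene in the A compartment, the open and gene-rich part of the nucleus, or the B compartment. All 10 genes, VWF included, could be placed on Sscrofa11.1 by their RefSeq symbol. The deposited compartment score of the 20-kb bin that holds the start site was positive, that is A, in all 7 Hi-C libraries for 8 of 10 genes, against 72.0% of 18691 placed genes. The 2 exceptions were KDR and PROX1, the receptor that drives blood vessel growth and the lymphatic regulator.

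PROX1 (chr9:129527704-129583693) scored -3.42 and 2.29 in wild boar GOM against -2.22 and 5.04 in wild boar ULB, and -10.1 and -9.87 in Bama pig GOM against -0.177 in Bama pig ULB. It lay at the border between compartments, positive in 2 of 7 libraries, and both positive libraries were wild boar replicate 2. LYVE1 (chr2:48937357-48954206) scored 22.6 and 15.7, 22.6 and 17.1, 16.8 and 18.1, and 15.2 in the same order, with little spread. FLT4 (chr2:78076008-78115137) scored 35.7 to 46.8 and was well inside A, above 70.2% of placed genes by its mean. By the size of the score FLT4 lay above LYVE1 and LYVE1 above PROX1, which was not their order of expression. The score was not brought to one scale between chromosomes, and PROX1 is on chromosome 9 and the others on chromosome 2. That order and the share of 70.2% are therefore descriptions only.

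KDR (chr8:41809116-41856379) scored 19.9 and 7.62 in wild boar GOM against 4.11 and 1.32 in wild boar ULB, and 10.7 and 24.2 in Bama pig GOM against -7.57 in Bama pig ULB. Every GOM library was above every ULB library, as in 9.21% of placed genes. FLT1 (chr11:5620698-5797095) showed the opposite, with 17.2, 8.74, 18.6 and 5.5 in the GOM libraries and 21.7, 19.9 and 18.7 in the ULB libraries, as in 5.51% of placed genes. Both patterns were also present when the score was centred on the median of each chromosome and library, and neither gene was called in expression by depot. No start site changed sign between depots in all libraries (0 of 10, against 0.540% of placed genes) or between breeds (0 of 10, against 0.193%).

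The other blood vessel genes and the ligand were positive in all 7 libraries. PECAM1 (chr12:14667643-14723296) scored 25.7 to 33.5, CDH5 (chr6:27108560-27142145) 16.5 to 28.8, TEK (chr1:195938177-196052294) 7.09 to 33.7, VWF (chr5:64516627-64655938) 34.8 to 48.9 and VEGFA (chr7:38746393-38762282) 33.7 to 45.1. TEK spans 114 kb, and when the score was averaged over all bins of the gene it was positive in 3 of 7 libraries, while PROX1 was then negative in all 7.

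**Figure D5:**
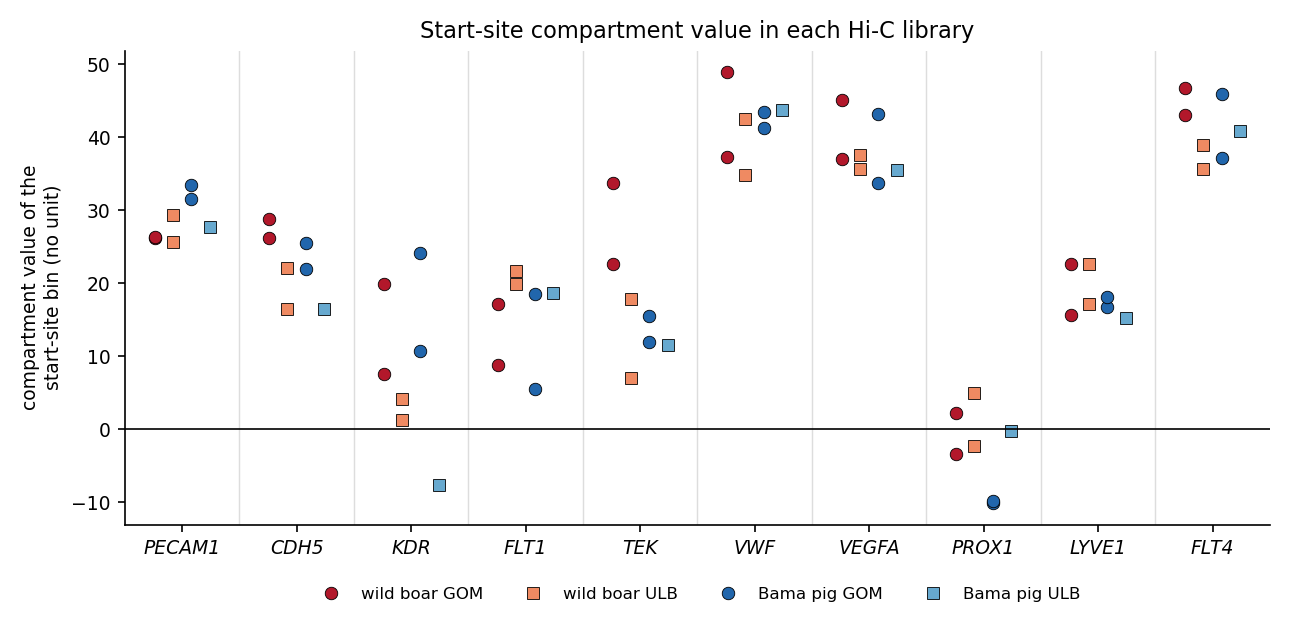
Compartment score of the 20-kb bin holding the start site (y axis, no unit, positive for A) of 10 genes in each of 7 Hi-C libraries, coloured by breed and depot. KDR and PROX1 lie around 0, and FLT4, VEGFA and VWF lie highest.

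Topologically associating domains (TADs), stretches within which contacts are dense, were deposited as 1 list per breed and depot, so they carry no replicate error. VEGFA lay in the same 520-kb domain, chr7:38580001-39100000, in all 4 lists. The start of CDH5 fell 8.56 kb inside the edge of a 440-kb domain, chr6:27100001-27540000, in wild boar GOM and Bama pig ULB. In the other 2 lists it lay outside any domain, 11.4 kb from the nearest edge, so that 1 step of 20 kb separated the lists. LYVE1 shared the left edge of its domain in all 4 lists, at position 48740001 of chromosome 2, and the domain spanned 380 kb in wild boar GOM, 300 kb in wild boar ULB and 280 kb in both Bama pig lists. KDR and PROX1 each had a domain that differed by at most 20 kb between lists, of 320 to 340 kb and 860 to 880 kb. PECAM1 lay in a domain of 160 kb in wild boar GOM and of 380 to 400 kb in the others, TEK in one of 200 kb in Bama pig ULB and 320 kb in the others, FLT1 in one of 440 to 580 kb, FLT4 in one of 540 to 1040 kb and VWF in one of 220 kb except in Bama pig GOM, where it was 1020 kb.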

How the data were processed

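RNA-seq and Hi-C values of GOM and ULB fat of wild boar and Bama pig were analysed, 7 libraries of each assay. The authors deposited an estimated count per gene, made with Kallisto (version 0.43.0 in the submitters' processing notes) against Sscrofa 11.1 and not normalized between libraries, and a TPM value per gene. The authors also deposited a compartment score per 20-kb bin and library and TAD lists called on merged replicates. The score is named an A-B index by its file but averages 0 on each chromosome like a principal component, so its sign alone was used to call A or B. Libraries were prepared with rRNA depletion and a stranded kit.

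Counts were rounded to whole numbers and tested in edgeR 4.0.16 (R 4.3.3) with its quasi-likelihood F test, two-sided and with TMM factors, among genes with TPM above 0.1 in every library of at least 1 breed and depot. Standard errors are the absolute log2 fold change over the square root of F. DESeq2 1.42.0 was the alternative; the method was tested on simulated data. Groups came from the sample titles. The replicate number was added as a block in an alternative, in the depot fits as breed and number: both depots came from the same pigs per the study's methods, but the labels do not say that a number marks a pig, and the check of it stands with the alternatives. No column was left without a library. P-values measure the spread between these libraries, which came from 4 pigs.

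Gene symbols came from a name table that covered 14821 of 21280 IDs, and positions and sequences from RefSeq on Sscrofa11.1, whose 18 autosomes end in the last bin of the Hi-C files. Coordinates count from 1. Members and lists were chosen with earlier results of these data known. Besides the members, the text names per list up to 3 genes with a mean TPM of at least 1 and the smallest p by depot and up to 2 by breed in the GOM. The upstream sequences of the other members are not reported here. Listed genes without an ID in the table were not analysed here. Counting error is known for RNA-seq only; the depth behind compartment scores and TADs is unknown. Python 3.11.15, pandas 2.3.3, numpy 2.4.6 and matplotlib 3.10.9 were used.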

Additional observations from a re-analysis of the deposited data

How the results depend on the processing

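The small number of libraries limits these results: 1 library stands for Bama pig ULB, and PROX1 and FLT4 rest on few counts. Upper-quartile scaling changed no call of a member.

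Numbers of genes called were the least stable values. By depot in both breeds 640 genes were called, against 1399 with DESeq2, 999 without a filter on low values and 230 to 657 when each library was left out, the lowest without Bama pig ULB replicate 2. By breed in both depots the numbers were 75, 1157, 503 and 1 to 1806 in that order, the lowest without Bama pig ULB replicate 2 and the highest without Bama pig GOM replicate 2. By breed in the GOM they were 4, 167, 26 and 0 to 123, and by depot in wild boar 318, 1318, 608 and 44 to 227, the lowest without wild boar GOM replicate 1. For the interaction 0 genes were called, against 52 with DESeq2, 7 without the filter and 0 or 1 with a library left out, and for breed in the ULB 45 against 418 with DESeq2. The cause was not tested, apart from fewer samples in the fits that leave out a library. Of members and listed genes, 14 were called by depot, 22 with DESeq2 and 11 without Bama pig GOM replicate 1. These last 2 alternatives and DESeq2 for breed in the ULB were added once the data had been seen.

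With the replicate block 15 genes were called by breed in the GOM and 1623 by depot in wild boar, and in the depot fit over both breeds KDR went to 0.06 and FLT1 to -0.20. It changed no member's call in the 4 fits in which it was run. In the breed fits the block was the number alone, which joins different animals across breeds. There it does not account for the depots that share a pig. Deviations of same-numbered libraries correlated at 0.23 between the wild boar depots and at 0.215 between breeds in the GOM over 12687 genes, with 1 pair of numbers each, so the data do not establish the pairing.

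Several log2 fold changes of members changed sign, none of them called in any of these fits. In the GOM by breed, upper-quartile scaling gave -0.08 for PECAM1, -0.07 for CDH5 and -0.09 for TEK, and a filter at TPM above 1 gave -0.02, -0.01 and -0.02. Leaving out each library moved the depot values of CDH5 between -0.34 and 0.07, KDR between -0.13 and 0.06, FLT1 between -0.24 and 0.51 and PROX1 between -0.68 and 0.15. Those of TEK, between 0.49 and 1.06, VEGFA, between -0.56 and -0.05, and FLT4, between 0.79 and 1.61, kept their sign. FLT4 was called by depot without wild boar GOM replicate 1 and in no other of these fits. The breed values ranged from -0.12 to 0.05 for PECAM1, -0.44 to 0.13 for CDH5 and -0.92 to 0.11 for FLT1, and without a change of sign from 0.86 to 1.12 for LYVE1. By edgeR, LYVE1 was called by breed without Bama pig GOM replicate 2 and in no other of these fits. In the GOM by breed they ranged from -0.14 to 0.19 for PECAM1, -0.41 to 0.80 for CDH5, -0.53 to 0.03 for KDR, -1.22 to 0.94 for FLT1, -0.38 to 0.35 for TEK, -2.02 to 0.05 for PROX1 and -0.52 to 1.04 for FLT4. By depot within wild boar they ranged from -0.23 to 0.06 for PECAM1, -0.24 to 0.38 for CDH5, -0.07 to 0.17 for KDR, -0.19 to 0.81 for FLT1 and -0.19 to 1.32 for FLT4.

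The lymphatic to blood ratio, 0.257 in GOM and 0.184 in ULB, was 0.135 and 0.0972 from counts scaled with TMM, which are not scaled for length, and 0.0174 and 0.0108 without LYVE1. The number of genes in compartment A in all libraries was 8, 8 with centring and 7 with the mean over all bins of a gene.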
